A study of Homo sapiens with 19 samples.

Results

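ISG15, UBA7, UBE2L6, HERC5, HERC6, USP18 and ISG20, 7 of the 25365 genes in the tables, were taken by symbol and read in 15 RNA libraries from 3 lymphoma cell lines. The first 6 genes encode the modifier ISG15, the enzymes that attach it to proteins or are related to those that do, and the protease that takes it off. ISG20 is an RNA exonuclease that shares the interferon-stimulated name but takes no part in conjugation, so the label of conjugation genes fits 6 of the 7.

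The lines OCI-LY10, TMD8 and SUDHL2 are established from diffuse large B-cell lymphoma of the activated B-cell-like kind. This kind often depends on B-cell receptor or NF-kB signalling, and the dependence of each line was not examined here. Cells of each line carried an inducible short hairpin RNA that was either shEGR1#8, shEGR1#9 (both directed at EGR1, an immediate early transcription factor) or a control hairpin, and every group received doxycycline at 20 ng/ml for 2 days. OCI-LY10 had 3 libraries per group, 9 in all, and TMD8 and SUDHL2 had 1 library per group, 3 each. The remaining 4 samples (EGR1 bound to chromatin, with input DNA) were not analysed here. The comparison addresses what changes in lymphoma RNA when EGR1 is targeted. The labels do not say whether replicates were separate cultures, so p-values measure only the spread between libraries, which may be technical.

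ISG15 is a small ubiquitin-like protein that type I and type III interferons induce strongly. It is joined to target proteins in the same 3-step way as ubiquitin: the activating enzyme (E1) UBA7 charges it, the conjugating enzyme (E2) UBE2L6 receives it, and a ligase (E3), in human cells chiefly HERC5, hands it to the target. USP18 removes it again and also holds back the type I interferon receptor, and in B-cell lymphoma these genes are known as part of the interferon programme that competes with survival signals.

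The hairpin labels were first set against the level of their target. In OCI-LY10, EGR1 RNA stood at 10.04, 11.4 and 20.5 FPKM (sequenced fragments scaled to gene length and library size) in libraries labelled shEGR1#8 and at 10.8, 11.8 and 22.7 FPKM in those labelled shEGR1#9, against 8.57, 9.59 and 12.3 FPKM in control libraries. It was thus not lower with either label (log2 difference of both labels from control 0.42, SE 0.267, limma adjusted p = 0.349), and replicate 3 was the highest library of each group. In TMD8 it was 10.8 and 9.95 FPKM with the labels shEGR1#8 and shEGR1#9, against 7.31 FPKM in control, and in SUDHL2 it was 13.7 and 15.4 against 17.0 FPKM. Every direction below is therefore a difference between libraries labelled shEGR1 and libraries labelled control.

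FPKM summed to 431993 to 445028 in OCI-LY10 libraries, and 10319 to 10499 genes reached 1 FPKM. Read depth is unknown. In TMD8 short RNA genes took 63.1% of the FPKM with the label shEGR1#8 and 60.5% with shEGR1#9, against 36.3% in the control library, which thus stood apart. In SUDHL2 the share was 54.9 and 53.6% with those labels, against 55.3% in control, and in OCI-LY10 it was 0.463 to 0.606%. All 8 B-cell markers examined were at 1 FPKM or more in every line.

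The promoters of the members are shown first, because the interferon-stimulated response element (ISRE), a sequence bound by IRF proteins, is the best-known regulatory sequence of this gene family. RefSeq windows (build GRCh38.p14) of 300 bases, 250 before to 50 after each gene's annotated start, were at hand for 5 of the 7 members (6 windows, as UBE2L6 has more than 1 start); USP18 and UBA7 had no entry. On both strands, the ISRE core, read as 2 copies of GAAA with any 2 bases between them, occurred in 3.57% of all 35116 windows, and a longer repeat of 3 such copies, which holds 2 overlapping cores, in 0.154%. The 150 bases before the start are printed below for the 3 members with a match and for HERC6, which has none, 5′ to 3′ on the plus strand on which all 4 genes lie, with the matches in capitals.
ISG15, chr1:1013347-1013496, GRCh38.p14, plus strand: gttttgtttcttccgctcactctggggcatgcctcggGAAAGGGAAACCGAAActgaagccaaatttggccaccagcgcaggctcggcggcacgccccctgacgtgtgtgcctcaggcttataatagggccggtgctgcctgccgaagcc
HERC5, chr4:88456969-88457118, GRCh38.p14, plus strand: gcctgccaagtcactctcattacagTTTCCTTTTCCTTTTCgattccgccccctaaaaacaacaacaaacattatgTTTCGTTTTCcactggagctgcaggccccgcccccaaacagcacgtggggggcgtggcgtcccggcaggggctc
ISG20, chr15:88638866-88639015, GRCh38.p14, plus strand: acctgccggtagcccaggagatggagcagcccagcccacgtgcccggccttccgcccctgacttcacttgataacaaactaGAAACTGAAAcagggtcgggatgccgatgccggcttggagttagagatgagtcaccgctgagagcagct
HERC6, chr4:88378702-88378851, GRCh38.p14, plus strand: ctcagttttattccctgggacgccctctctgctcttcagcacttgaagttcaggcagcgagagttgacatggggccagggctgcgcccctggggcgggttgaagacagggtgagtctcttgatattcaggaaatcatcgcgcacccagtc

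In ISG15 the core matched at 2 overlapping places on the strand of the gene, with first bases 113 and 107 before the start, which together make 1 longer repeat. In HERC5 it matched at 3 places on the opposite strand, the first 2 of them overlapping in 1 longer repeat, with first bases at −125, −119 and −74. In ISG20 it matched once, at −69. No window of HERC6 or UBE2L6 held the core, and no member's window held the EGR1 letters GCGNGGGCG (9.43% of all windows), which says only that these letters are not in these windows.

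**Figure D1:**
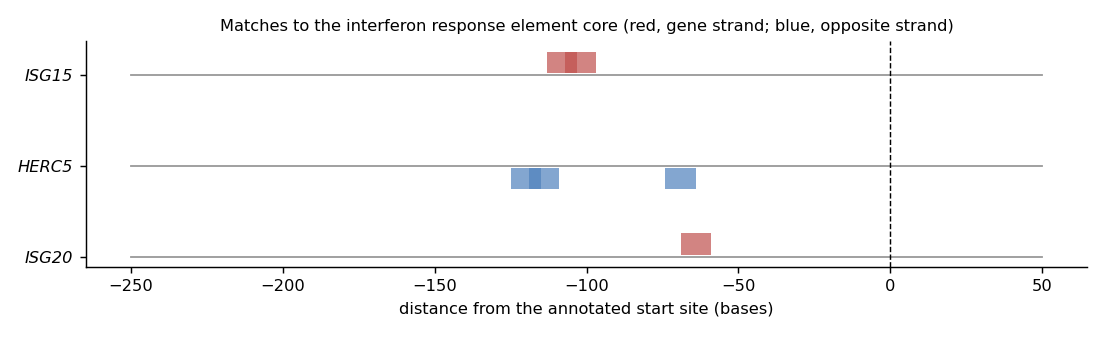
Matches of the ISRE core in the promoter windows of the 3 members that hold it, by distance in bases from the annotated gene start, with matches on the gene's strand and on the opposite strand marked apart. ISG15 has 2 matches, HERC5 3 and ISG20 1, all between 125 and 60 bases before the start.

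In OCI-LY10, ISG15, UBE2L6, HERC6, USP18 and UBA7 were higher in libraries labelled shEGR1 than in control. ISG15 and USP18 were a little over 2-fold higher, HERC6 about 2-fold, and UBE2L6 and UBA7 about 1.5- and 1.7-fold. ISG20 was slightly higher without passing the test, and HERC5 was listed at 0 throughout. Of the 6 members that reached the filter of 1 FPKM in at least 3 of the 9 libraries, 5 were called higher and 0 lower with both labels combined (limma on log2(FPKM + 1), Benjamini-Hochberg adjusted p under 0.05 over 10612 genes), where 5.84% of all genes tested were called higher and 2.71% lower. With quantile normalization the genes called higher and lower numbered 443 and 365, against 620 and 288 on the values as deposited. All 6 libraries labelled shEGR1 lay above all 3 control libraries for each of the 6 members, as they did for 12.9% of genes tested. UBA7 passed the filter through its shEGR1 libraries alone, since no control library reached 1 FPKM. HERC6 also needed shEGR1 libraries to pass, with controls at 0.836, 1.10 and 1.04 FPKM. The count among the members that passed is therefore not evenly drawn.

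ISG15, the modifier, read 120.2, 145 and 166 FPKM in libraries labelled shEGR1#8 and 132, 165 and 139 FPKM in those labelled shEGR1#9, against 60.1, 76.1 and 47.8 FPKM in control libraries. Every library labelled shEGR1 lay well above the highest control, and the 2 labels covered nearly the same range. The means were 143.8 ± 23.1, 145.5 ± 17.3 and 61.4 ± 14.2 FPKM in the same order of groups (SD, n = 3 each). ISG15 rose by 1.24 log2 units with both labels (SE 0.151, 95% interval 0.90 to 1.58, limma adjusted p = 0.00221), by 1.23 with shEGR1#8 (adjusted p = 0.00712) and by 1.25 with shEGR1#9 (adjusted p = 0.00587). It ranked 17th from the top of 10612 genes by log2 change. Without replicate 3 of every group, left out because EGR1 was highest there, the change with shEGR1#8 was 0.95 and no longer called (limma adjusted p = 0.0591).

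UBA7, the activating enzyme of ISG15, was scarce. It read 1.13, 1.15 and 1.12 FPKM with the label shEGR1#8 and 1.09, 1.10 and 1.25 FPKM with shEGR1#9, against 0.484, 0.869 and 0.673 FPKM in control libraries. The libraries labelled shEGR1 lay close together, and the controls were lower and more spread out. UBA7 rose by 0.36 log2 units with both labels (SE 0.083, limma adjusted p = 0.0315) and was not called with shEGR1#8 (0.36, adjusted p = 0.071) or shEGR1#9 (0.36, adjusted p = 0.0693) alone. With array weights it was called with shEGR1#9 (limma adjusted p = 0.0178). With a pseudocount of 0.1 in place of 1 the change was 0.71. The call was lost with quantile normalization (limma adjusted p = 0.0507), with a replicate block (0.0502), when control replicate 1 or 3 was left out (0.126 and 0.124), when any 1 of the shEGR1#9 libraries was (0.0574, 0.0645 and 0.0725 in replicate order) and without replicate 3 of every group (0.174).

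UBE2L6, the conjugating enzyme, read 88.7, 83.1 and 105 FPKM with the label shEGR1#8 and 94.4, 94.7 and 98.9 FPKM with shEGR1#9, against 61.5, 59.5 and 63.5 FPKM in control libraries. The controls lay close together, and the lowest shEGR1 library lay clearly above them. UBE2L6 rose by 0.60 log2 units with both labels (SE 0.073, limma adjusted p = 0.0021), by 0.57 with shEGR1#8 (adjusted p = 0.00826) and by 0.63 with shEGR1#9 (adjusted p = 0.00448).

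The ligases differed in whether they were detected. HERC5, the main ISG15 ligase of human cells, was listed at 0 FPKM in all 9 OCI-LY10 libraries, and was not tested. A value of 0 in a table without counts can be a failed estimate, but HERC5 was also near 0 in the other lines, at 0.0815 FPKM with the label shEGR1#8 and 0 with shEGR1#9, against 0.0264 FPKM in control, in TMD8, and at 0.102 and 0, against 0.0342 FPKM, in SUDHL2. HERC6, its close relative and the main ISG15 ligase in the mouse, read 2.23, 1.96 and 1.77 FPKM with the label shEGR1#8 and 2.31, 2.20 and 2.09 FPKM with shEGR1#9, against 0.836, 1.10 and 1.04 FPKM in control libraries. Every library labelled shEGR1 lay above every control, at low levels throughout. HERC6 rose by 0.63 log2 units with both labels (SE 0.076, limma adjusted p = 0.0021), by 0.58 with shEGR1#8 (adjusted p = 0.00958) and by 0.69 with shEGR1#9 (adjusted p = 0.0038). With a pseudocount of 0.1 the change with both labels was 1.01. The call with shEGR1#8 was lost when only those 3 and the control libraries were fitted (limma adjusted p = 0.0517) and without replicate 3 of every group (0.0529).

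USP18, the ISG15 protease, read 10.7, 8.75 and 11.7 FPKM with the label shEGR1#8 and 11.5, 11.3 and 12.2 FPKM with shEGR1#9, against 4.90, 4.15 and 4.76 FPKM in control libraries. The lowest library labelled shEGR1 lay well above the highest control. USP18 rose by 1.10 log2 units with both labels (SE 0.087, limma adjusted p = 0.000272), by 1.02 with shEGR1#8 (adjusted p = 0.00144) and by 1.18 with shEGR1#9 (adjusted p = 0.000584). The genome holds near-identical copies of USP18, among them USP41, and how shared reads were assigned is not given in the sources used here, so its level is uncertain.

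ISG20, which degrades single-stranded RNA, read 98.7, 103 and 119.6 FPKM with the label shEGR1#8 and 92.3, 111 and 101 FPKM with shEGR1#9, against 87.3, 91.5 and 74.6 FPKM in control libraries. The groups did not overlap, but the lowest shEGR1 library lay just above the highest control. The log2 difference was 0.30 with both labels (SE 0.091, limma adjusted p = 0.078), 0.34 with shEGR1#8 (adjusted p = 0.103) and 0.26 with shEGR1#9 (adjusted p = 0.208), so it was not called. With array weights, which count less consistent libraries less, it passed with both labels (limma adjusted p = 0.0365) and with shEGR1#9 (0.0391).

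**Figure D2:**
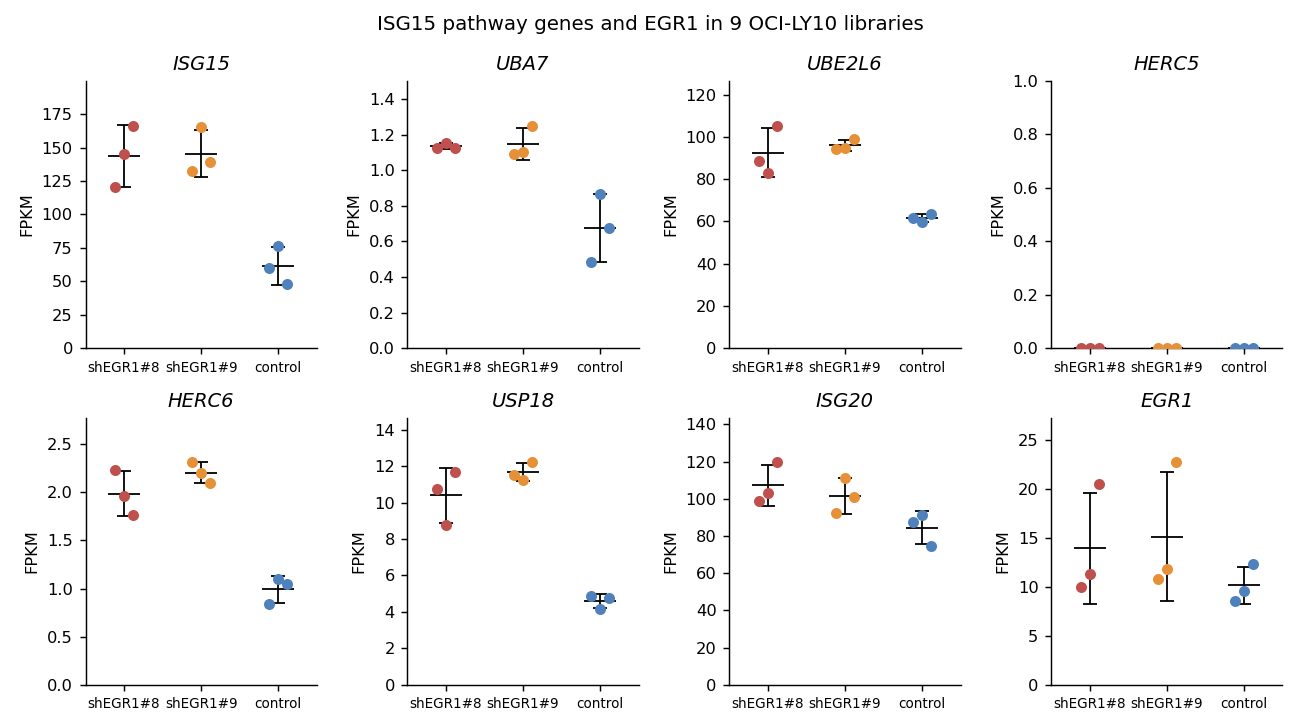
FPKM of each member and of EGR1 in the 9 OCI-LY10 libraries (points; bars, group mean ± SD, n = 3), by hairpin label. Apart from HERC5, at 0 in all libraries, and EGR1, whose groups overlap, every library labelled shEGR1#8 or shEGR1#9 lies above the 3 control libraries, widely in ISG15 and USP18 and narrowly in ISG20.

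Taken with each label alone, 4 of the 6 tested members were called higher with shEGR1#8, where 3.71% of all genes were called higher and 1.62% lower, and 4 with shEGR1#9, where 3.55% were called higher and 1.54% lower. In each case these were ISG15, USP18, HERC6 and UBE2L6. Both comparisons use the same 3 control libraries, so neither is an independent repeat of the other. The median log2 difference of the 6 members was 0.58 with shEGR1#8 and 0.66 with shEGR1#9, beside 0.03 and 0.02 over all genes tested.

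The libraries labelled shEGR1#9 were then set against those labelled shEGR1#8. None of the 6 tested members was called or had an unadjusted p under 0.05, and limma called 0 of 10612 genes, with 267 at an unadjusted p under 0.05. The log2 difference was 0.02 for ISG15 (95% interval −0.37 to 0.42), 0.16 for USP18 (−0.07 to 0.39) and 0.10 for HERC6 (−0.10 to 0.30). For UBE2L6 it was 0.06 (−0.13 to 0.25), for UBA7 0.01 (−0.21 to 0.23) and for ISG20 −0.08 (−0.32 to 0.16). The intervals leave room for differences of up to 0.42 log2 units between the labels, and the labels are not shown to act alike.

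**Figure D3:**
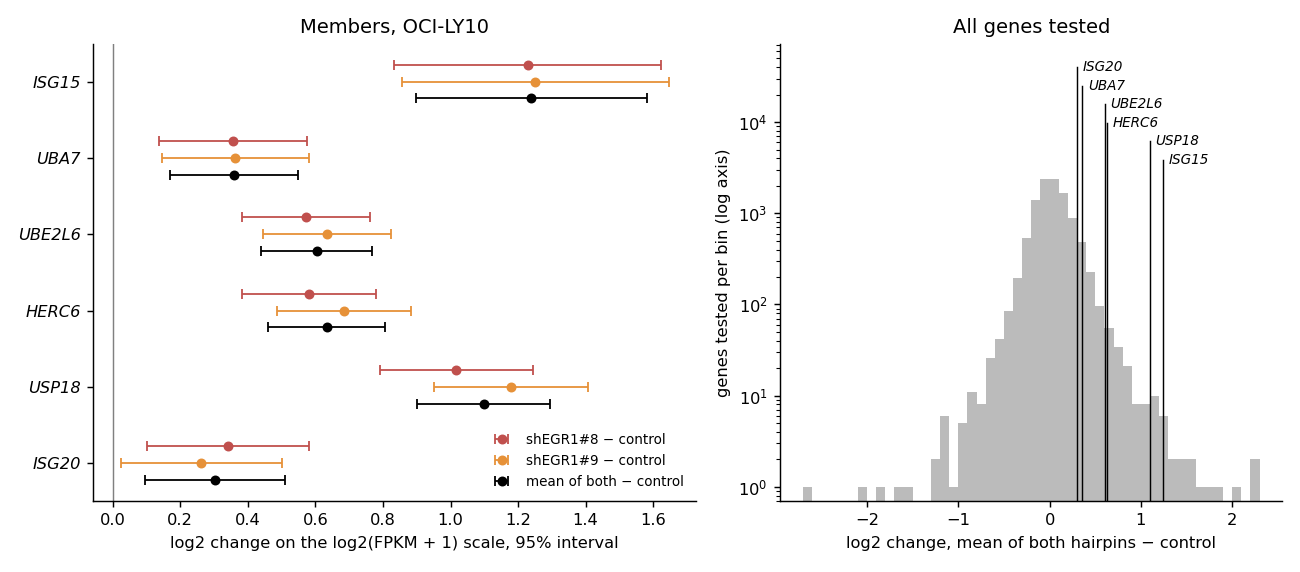
Left, log2 change of each tested member on the log2(FPKM + 1) scale with its 95% interval, for shEGR1#8 and shEGR1#9 against control and for both labels together. Right, the same change with both labels over all 10612 genes tested in OCI-LY10 (genes per bin, log axis), with the members marked at 0.30 (ISG20) to 1.24 (ISG15).

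The order of the members by FPKM, a measure scaled for gene length, differed between the groups of OCI-LY10. With both shEGR1 labels ISG15 was the highest, followed by ISG20 and UBE2L6, whose libraries overlapped, then USP18, HERC6, UBA7 and HERC5. In control libraries ISG20 was the highest, above UBE2L6 and ISG15, which overlapped, then USP18, then HERC6 and UBA7, which also overlapped, and HERC5. ISG15 averaged 116.9 FPKM over the 9 libraries, a level that 5.49% of genes at 1 FPKM exceeded, and HERC6 averaged 1.73 FPKM, which 92.4% exceeded.

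In TMD8 and SUDHL2 there was 1 library per label, so the differences have no replicate check and no test was made. In TMD8 ISG15 read 115 FPKM with the label shEGR1#8 and 85.1 FPKM with shEGR1#9, against 32.7 FPKM in control (log2 differences 1.78 and 1.35). USP18 read 14.01 and 11.1 FPKM, against 3.27 FPKM in control (1.81 and 1.51), and ISG20 read 16.2 and 16.4 FPKM, against 6.27 FPKM (1.24 and 1.26). These 3 members differed by more than 2-fold with both labels. UBE2L6 read 89.9 and 93.3 FPKM, against 57.7 FPKM in control (0.63 and 0.68). HERC6 read 11.7 and 9.88 FPKM, against 6.62 FPKM (0.73 and 0.51), and UBA7 read 3.39 and 3.85 FPKM, against 2.51 FPKM (0.32 and 0.47).

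Past 1.5-fold on the log2(FPKM + 1) scale stood 5 of the 6 members detected in TMD8 with the label shEGR1#8, where 13.8% of 11807 genes did so upward and 19.9% downward, and 4 with shEGR1#9, where 13.2% did so upward and 18.4% downward. The median log2 difference over all genes was −0.09 with shEGR1#8 and 0.03 after median-ratio scaling, a shift of over 0.1, and the scaling left the members' counts at 5 and 4, with 17.4 and 15.0% of all genes past 1.5-fold upward. With a pseudocount of 0.1 UBA7 also passed with shEGR1#9 (0.60). The control library, whose share of short RNA was lower, enters every TMD8 difference, and its part in them was not tested.

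In SUDHL2 ISG15 read 521 FPKM with the label shEGR1#8 and 472 FPKM with shEGR1#9, against 217 FPKM in control (log2 differences 1.26 and 1.11). USP18 read 57.2 and 59.7 FPKM, against 23.4 FPKM in control (1.25 and 1.31), and UBA7 read 9.12 and 9.43 FPKM, against 3.64 FPKM (1.12 and 1.17). Both were thus more than 2-fold apart from control, as ISG15 was. ISG20 read 58.6 and 50.4 FPKM, against 20.03 FPKM (1.503 and 1.29), and UBE2L6 read 207 and 212 FPKM, against 116 FPKM (0.83 and 0.86). HERC6 differed least, at 37.4 and 27.1 FPKM, against 25.3 FPKM in control (0.55 and 0.10). All detected members but HERC6 stood past 1.5-fold with each label, 5 of 6. Of 11631 genes 6.12% did so upward and 3.9% downward with shEGR1#8, and 9.69% upward and 8.28% downward with shEGR1#9. After median-ratio scaling the members' counts were the same, with 5.96 and 9.57% of all genes past 1.5-fold upward.

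**Figure D4:**
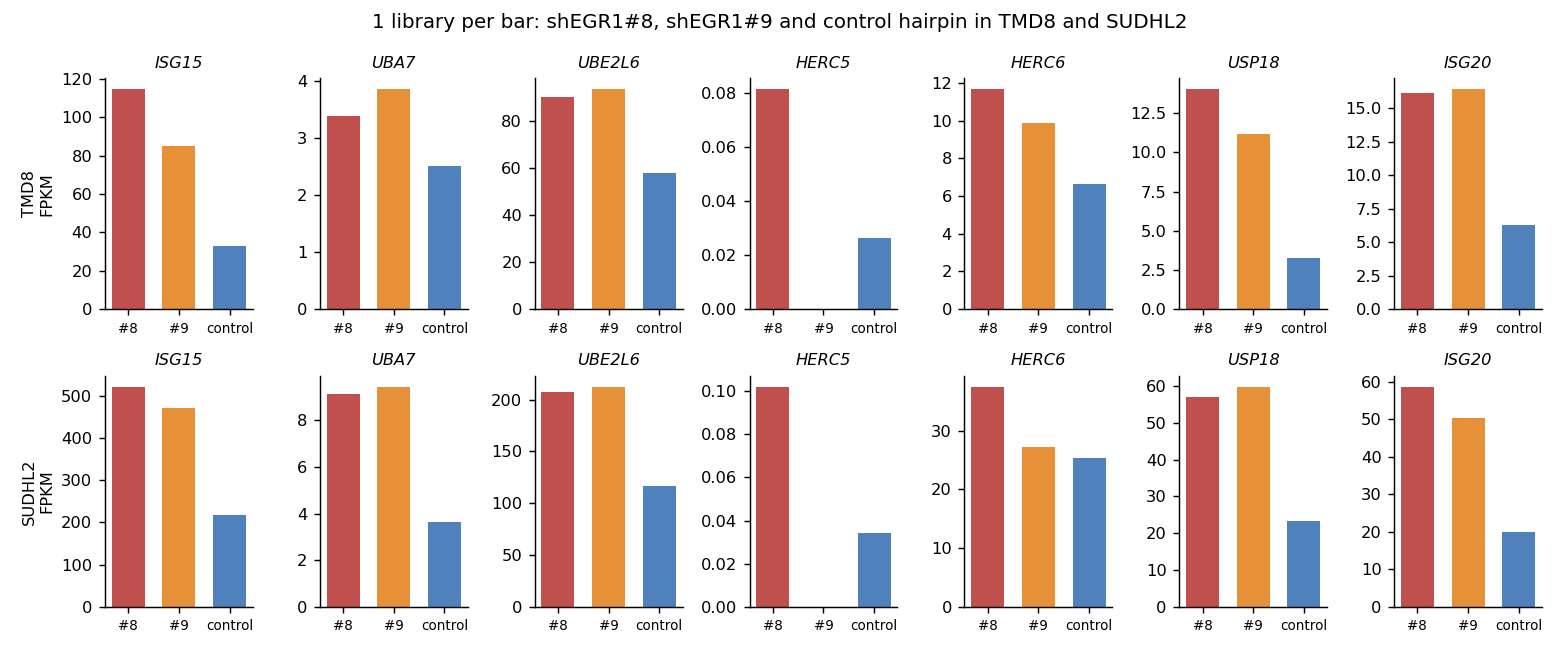
FPKM of each member in the single TMD8 and SUDHL2 libraries by hairpin label, without replicates. All 6 detected members are higher with both shEGR1 labels than in control in each line, by the least in HERC6 with shEGR1#9 in SUDHL2 (27.1 against 25.3 FPKM).

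Set side by side as a description, since the tables may have been normalized separately, the lines differed in their control levels. ISG15 was at 217 FPKM in the SUDHL2 control, 61.4 ± 14.2 FPKM (SD, n = 3) in OCI-LY10 controls and 32.7 FPKM in the TMD8 control. HERC6 was at 25.3, 0.995 ± 0.140 and 6.62 FPKM in the same order of lines, USP18 at 23.4, 4.60 ± 0.400 and 3.27 FPKM, and UBA7 at 3.64, 0.675 ± 0.192 and 2.51 FPKM. Thus most members were highest in SUDHL2, whereas ISG20 was highest in OCI-LY10, at 84.5 ± 8.83 FPKM, against 20.03 FPKM in SUDHL2 and 6.27 FPKM in TMD8.

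Most other genes tied to ISG15 or USP18 (further ligases, conjugating enzymes and proteases, the ISG15 receptor, and partners of USP18 such as the interferon receptor) did not pass the test. Of 15 tested of 17 such genes in OCI-LY10 with both shEGR1 labels, 1 rose, 2 fell and 12 did not pass, with a median log2 difference of 0.04, beside 0.03 over all genes. Over all genes tested 5.84% rose and 2.71% fell. TRIM25, a ubiquitin ligase that can also attach ISG15, rose to 25.2 ± 0.399 and 26.8 ± 0.362 FPKM with the labels shEGR1#8 and shEGR1#9, against 20.6 ± 0.776 FPKM in control (SD, n = 3 each; log2 change 0.32, limma adjusted p = 0.00411). It read 24.2 and 25.3 against 14.1 FPKM in TMD8 and 49.4 and 54.0 against 33.3 FPKM in SUDHL2. SKP2, a ubiquitin ligase subunit reported to mark USP18 for degradation, fell to 5.92 ± 1.06 and 5.76 ± 0.0769 FPKM, against 11.1 ± 0.320 FPKM in control (−0.83, limma adjusted p = 0.00105). It read 9.70 and 13.7 against 19.4 FPKM in TMD8 and 13.3 and 11.05 against 20.2 FPKM in SUDHL2. ARIH1, a ligase also reported to attach ISG15, fell by 0.42 log2 units (limma adjusted p = 0.0186), a call lost without control replicate 1, 2 or 3 (0.0757, 0.0863 and 0.0779) and without replicate 3 of every group (0.115).

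The matching genes of ubiquitin and other modifiers were examined as the families to which the members belong. None of the 8 tested E1 enzymes other than UBA7 was called (median −0.01; SAE1, of SUMO, −0.09, limma adjusted p = 0.336), and none of the 15 genes of ubiquitin and ubiquitin-like proteins (median −0.00; RPS27A −0.38, limma adjusted p = 0.0916; UFM1 −0.30, 0.1). At an unadjusted p under 0.05 limma had 0 of the 8 E1 enzymes and 2 of the 15 ubiquitin-like genes. Over all genes it had 2767 of 10612. RPS27A passed without shEGR1#8 replicate 2 (limma adjusted p = 0.049), and UFM1 without shEGR1#8 replicate 2 or 3 (0.0459 and 0.0471) and with array weights (0.0376). Of 28 tested E2 enzymes other than UBE2L6, 0 rose and 3 fell, where 5.84% of all genes rose and 2.71% fell. The 3 were UBE2D2 (−0.38, limma adjusted p = 0.00459), UBE2V2 (−0.32, 0.0287) and UBE2G1 (−0.29, 0.0172). The call of UBE2V2 was lost without control replicate 1, 2 or 3 (0.0576, 0.119 and 0.146) or shEGR1#9 replicate 2 or 3 (0.0708 and 0.0654), that of UBE2G1 without control replicate 1, 2 or 3 (0.0748, 0.086 and 0.0731), and those of UBE2D2 and UBE2V2 without replicate 3 of every group (0.054 and 0.101). None of the 4 other HERC ligases was called (median 0.00; HERC3 0.12, limma adjusted p = 0.381), nor any of 9 RNA exonucleases set beside ISG20 (median 0.03; REXO4 −0.18, 0.147). At an unadjusted p under 0.05 limma had 0 of these ligases and 3 of the exonucleases, beside the 2767 of 10612 over all genes. REXO4 passed without shEGR1#8 replicate 3 (limma adjusted p = 0.0413) and with array weights (0.0325).

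In TMD8, 9 and 7 of 15 ubiquitin-like genes, 11 and 10 of 29 E2 enzymes and 4 and 4 of 8 E1 enzymes were past 1.5-fold downward with the labels shEGR1#8 and shEGR1#9, where 19.9 and 18.4% of all genes were. Of the 4 other HERC ligases 0 were, and 1 stood past 1.5-fold upward with each label, where 13.8 and 13.2% of all genes did. After median-ratio scaling 3 and 2 of these ligases stood past 1.5-fold upward, where 17.4 and 15.0% of all genes did. Downward were then 7 and 7 ubiquitin-like genes, 10 and 9 E2 enzymes and 2 and 4 E1 enzymes, and 1803 and 1971 of all 11807 genes. In SUDHL2, 0 and 3 of the ubiquitin-like genes and 0 and 6 of the E2 enzymes were past 1.5-fold downward without scaling, where 3.9 and 8.28% of all genes were.

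Most of the other interferon-induced genes tested also rose. In OCI-LY10 with both shEGR1 labels 24 of 32 rose, 0 fell and 8 did not pass, with a median log2 difference of 0.50. Over all genes tested 5.84% rose and 2.71% fell. The direction in this list was known from earlier results of these data and is no independent support. The largest changes were in IFI6, a mitochondrial protein (1.73, limma adjusted p = 0.000818), IFIT1, a sensor of foreign RNA ends (1.52, 0.000121), its relative IFIT3 (1.21, 0.000184) and OASL, an oligoadenylate synthetase relative (1.00, 0.000182). With array weights 28 rose and 1 fell, where 1914 of all 10612 genes were called in either direction. Of 9 interferon-related transcription factors 5 rose and the others missed the threshold, beside the 5.84% of all genes that rose. Array weights gave 5 of these factors higher and 1 lower. IRF8, a factor of B-cell identity, was among those that did not pass (−0.18, limma adjusted p = 0.0857). The risers included IRF7, which amplifies interferon production (1.33, limma adjusted p = 0.000662), IRF9 (0.62, 0.000742) and STAT2 (0.42, 0.00192). IRF7 read 10.9 and 13.5 FPKM with the labels shEGR1#8 and shEGR1#9, against 2.52 FPKM in control, in TMD8, and 53.4 and 45.8 against 21.2 FPKM in SUDHL2. Of 34 interferon-induced genes detected in each of these lines, 23 and 22 stood past 1.5-fold upward in TMD8, where 13.8 and 13.2% of all genes did, and 28 and 26 in SUDHL2, where 6.12 and 9.69% did. A gene counted as detected with 1 FPKM in any library. In TMD8 IFIT1 (control 0.443 FPKM) and OASL (control 0.280 FPKM) entered through libraries labelled shEGR1 alone, so these counts are not evenly drawn.

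Interferon genes themselves were barely detected. Of 21 in the tables, 18 were listed at 0 in all OCI-LY10 libraries, and the summed level was 0.172 to 0.221 FPKM with shEGR1#8 and 0.0301 to 0.112 FPKM with shEGR1#9, against 0.198 to 0.278 FPKM in control. The sum was 0.895 and 0.868 against 0.225 FPKM in TMD8 and 1.23 and 2.27 against 1.14 FPKM in SUDHL2, where IFNL1, a type III interferon, reached 1.59 FPKM with the label shEGR1#9.

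**Figure D5:**
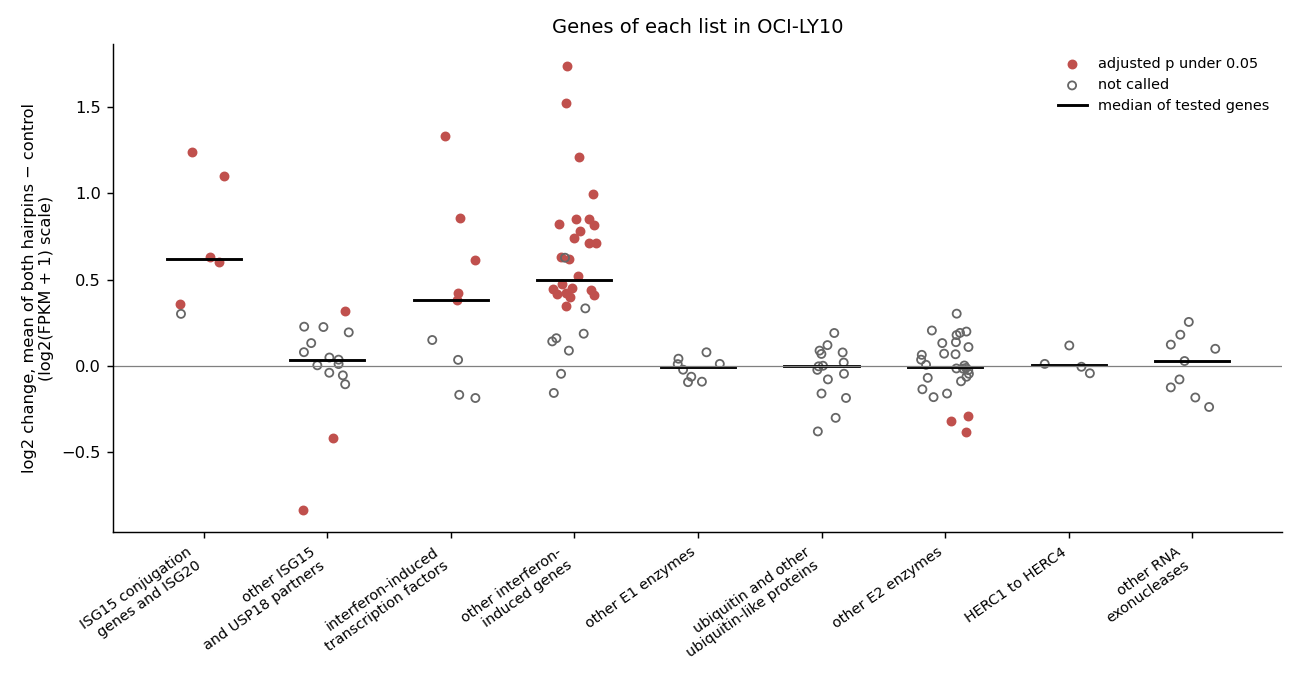
Log2 changes in OCI-LY10 (both shEGR1 labels against control, log2(FPKM + 1) scale) of each tested gene in the members and 8 lists of related genes, with called genes marked and a line at each list's median. The members and the interferon-induced genes lie mostly above 0, with medians of 0.62 and 0.50, and the other modifier families lie around 0.

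Markers of B cells and of other cell types were read beside these results. In bulk RNA, more cells that carry a transcript and more RNA per cell cannot be told apart. The summed B-cell markers were 3629 to 4347 FPKM with shEGR1#8 and 3745 to 4106 FPKM with shEGR1#9, against 2965 to 3261 FPKM in OCI-LY10 controls. Of the 8 markers 2 rose, 0 fell and 6 did not pass, where 5.84% of all genes tested rose and 2.71% fell. The markers' median log2 difference was 0.03, so the higher sum was not shared by all of them. CD74, the invariant chain, rose (0.84, limma adjusted p = 0.00261), as did CD79A, of the B-cell receptor (0.65, 0.00926), a call lost without control replicate 2 or 3 (0.0527 and 0.0549) and without replicate 3 of every group (0.06). MS4A1, which encodes CD20, averaged 272 ± 42.4 and 272 ± 6.65 FPKM with the labels shEGR1#8 and shEGR1#9, against 323 ± 11.4 FPKM in control (SD, n = 3 each; −0.25, limma adjusted p = 0.11). Of 13 T and NK cell markers 7 were at 0 in all OCI-LY10 libraries, among them CD2, CD3G and NKG7, and the sum was 25.1 to 33.3 FPKM with shEGR1#8 and 27.7 to 32.3 FPKM with shEGR1#9, against 22.2 to 22.8 FPKM in control. Only GZMB and PRF1, both cytotoxic granule proteins, reached 1 FPKM, and PRF1 rose (0.44, limma adjusted p = 0.00585).

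The T and NK sum was 196 and 217 against 166 FPKM in TMD8 and 257 and 238 against 227 FPKM in SUDHL2. CD3D, CD8B and GNLY were at 0 in both lines. Only KLRD1 and GZMB reached 1 FPKM in any TMD8 library, and only CD7 and GZMB in any SUDHL2 library. The highest value of a single marker was 214 FPKM in TMD8 and 254 FPKM in SUDHL2, so most of each sum came from few genes. Myeloid markers, 7 of 9 at 0, summed to at most 0.0793 FPKM in OCI-LY10, and to 3.03 and 1.75 against 1.28 FPKM in TMD8 and 1.43 and 3.24 against 2.19 FPKM in SUDHL2. Fibroblast, epithelial and endothelial markers, 7 of 11 at 0 in OCI-LY10, summed to 10.9 to 14.5 and 11.8 to 13.1 against 10.9 to 11.7 FPKM there, to 39.2 and 37.5 against 30.05 FPKM in TMD8 and to 38.6 and 34.6 against 19.4 FPKM in SUDHL2. Of these only COL1A1 and CDH1 reached 1 FPKM in any TMD8 or SUDHL2 library. The part of the marker differences in the members' results was not tested.

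Finally, the 3 genes whose pattern over the 9 OCI-LY10 libraries was most like each member's were taken, by the smallest root mean square difference of log2 values centred on each gene's mean, out of 10612 genes. For ISG15 they were IRF7 (0.134), TMC6 (0.141) and CKB (0.142), and for USP18 IL2RG (0.109), LILRB4 (0.114) and CCL3 (0.119). For HERC6 they were GBP2 (0.0509), PLEK (0.0599) and IFI44L (0.068), and for UBE2L6 BCAR3 (0.046), EMILIN2 (0.0518) and PTPN6 (0.0549). PEAK1 (0.0483), BTG3 (0.055) and C16orf62 (0.0579) were most like UBA7, and PINK1 (0.0489), TIMM17B (0.0533) and PLEKHM2 (0.0546) most like ISG20. The distances are not compared between members. No member was among another's nearest 3.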

How the data were processed

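The authors deposited 1 table of genes by libraries for each cell line, with values that were taken to be FPKM (scaled to gene length and library size) because they are not whole and have no fixed total. Neither labels nor headers name the unit. Bowtie2, HISAT, StringTie and hg19 are named per the submitters' processing notes; the sources used here give no roles, versions, annotation or scaling, and a TruSeq RNA kit was used, per the labels' protocols. Repeated names (4, 10 and 10 lines in OCI-LY10, TMD8 and SUDHL2) and 430 SUDHL2 lines, of which 429 equal the end of the TMD8 table, were left out, leaving 25365, 25267 and 25266 genes. Depth per library is unknown, so no counting interval is given. Values below 0.08 FPKM in pairs of libraries were shifted by the log2 offset that gave the most whole-number ratios. Numbers to 4 and a tolerance of 0.01 on the log2 scale were used. At that best offset 23.0 to 35.8% of genes in pairs of OCI-LY10 libraries had such a ratio. The median share over all offsets tried was at most 3.9% there. In TMD8 the share at the best offset was 87.6% between the shEGR1 libraries and 10.4 and 8.1% between control and either.

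Genes with at least 1 FPKM in at least 3 of 9 OCI-LY10 libraries (10612) were tested in limma 3.58.1 (R 4.3.3) on log2(FPKM + 1) with a mean-variance trend and 1 mean per group, with Benjamini-Hochberg adjustment over all of them and a threshold of 0.05. This scale understates changes of low genes. Each hairpin label, and the mean of both, was set against control, and shEGR1#9 against shEGR1#8. TMD8 and SUDHL2, with 1 library per group, are described by 1.5-fold differences among genes with 1 FPKM in any library. The fit was run on simulated data with independent normal noise as a check of the code, which does not show that the calls in these libraries are right. Alternatives were other pseudocounts, filters and scalings, array weights, a replicate block, only the groups compared, and leaving out libraries; leaving out replicate 3 of every group was chosen after seeing the data. Deviations from the group means correlated between same-number libraries of shEGR1#9 and shEGR1#8 (0.134 to 0.260, 3 of 3 pairs over 0.1). Between same-number libraries of either and control they did not (−0.188 to 0.0597, 0 of 6 pairs over 0.1). Over all groups 4 of 18 different-number pairs were also over 0.1, up to 0.184. Among them was shEGR1#8 replicate 2 with shEGR1#9 replicate 1 (0.146). The numbers were taken to pair shEGR1#9 and shEGR1#8 only as a weak hint from the data and not from the labels. Named genes are all members, EGR1, at most 4 called genes by size of change per list (at most 2 by p where none was called) and the nearest 3 by pattern; 1 gene that this rule names is not reported here. Examples of other genes given with no rank, such as USP41, MS4A1, IRF8 or the markers at 0, were named after their values were seen. The members and lists were chosen with earlier results of these data known. Promoters are RefSeq sequences searched in Python 3.11.15 with pandas 2.3.3 and numpy 2.4.6; figures used matplotlib 3.10.9.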

Additional observations from a re-analysis of the deposited data

How the results depend on the processing

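Of the values for single members under the alternatives, 497 kept their side of the threshold, 11 lost and 3 gained a call. A further 1 passed 1.5-fold (UBA7 in TMD8, above), and 0 reversed with a call in either fit. Changes of direction without a call in either fit were counted as kept. They occurred for shEGR1#9 against shEGR1#8, where ISG15 ranged from −0.10 to 0.16 and ISG20 from −0.15 to 0.01. UBE2L6 ranged from −0.01 to 0.16 there and UBA7 from −0.03 to 0.03. The calls of both labels against control numbered 5 members, or 3 of the 4 tested at a minimum of 5 FPKM. USP18 passed that minimum through its shEGR1 libraries alone, since no control library reached 5 FPKM, so this count is not evenly drawn either. Leaving out 1 library gave 4 to 5 members called with both labels, 4 with shEGR1#8, 4 with shEGR1#9 and 0 for shEGR1#9 against shEGR1#8. Over all genes it gave 281 to 1318, 133 to 699, 143 to 1153 and 0 to 9 calls in the same order, against 908, 566, 540 and 0. The lowest counts came without control replicate 3 (281, 133 and 143), and without control replicate 1 or 2 the first was 313 each. Array weights called 1914 genes with both labels and 1950 with shEGR1#9. With only the groups compared, 128 genes were called with shEGR1#8 and 1186 with shEGR1#9. Without a filter 1 gene was called for shEGR1#9 against shEGR1#8. Without replicate 3 of every group, an alternative chosen after seeing the data, 368, 150, 187 and 1 genes were called, and 2 members with shEGR1#8. A replicate block changed no call of shEGR1#9 against shEGR1#8, the groups that the numbers were taken to pair, with 0 genes called. Against control, where the numbers were not taken to pair samples, the block called 349 genes with shEGR1#8 and 351 with shEGR1#9. It called 4 members with both labels and with each, UBA7 missing with both labels (limma adjusted p = 0.0502). Outside the members it ended the call of UBE2V2 (limma adjusted p = 0.0583) and called RPS27A (0.0482). Whether the numbers pair control libraries with the others is not known. The cause of these changes was not tested. Depth is unknown, and differences of low genes (UBA7, HERC6) are limited by it.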
